A study of Thunnus thynnus with 30 samples.

Results

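Genes that move fatty acids and lipoproteins were followed through the first weeks of life of Atlantic bluefin tuna (Thunnus thynnus) larvae whose prey differed in DHA (docosahexaenoic acid, an omega-3 fatty acid abundant in brain and eye). They are 5 rows of the count table, taken by name: SLC27A1, FABP2, mfsd2ab, Apob and APOC2, of 7295 rows in all. All 5 passed the filter on low counts, which kept 7292 rows, and no library had a count of 0 for any of them. RNA was sequenced from whole larvae, labelled as wild type, that ate rotifers (Brachionus rotundiformis, small live prey) enriched at low, medium or high DHA, which are 2, 3.6 and 10.9 mg DHA per g dry weight of rotifer. Every group was reared in the same kind of tank system, with 3 tanks per DHA level, and the prey differed in the dilution of 1 enrichment preparation. DHA can therefore not be told apart from anything else in that preparation, and the DHA levels serve here as names of the prey. Sampling was at 3 ages, 5, 10 and 15 dph (days after hatching). The 26 libraries form 9 groups of age and DHA level, each with 3 libraries except high DHA at 5 dph, which has 2 (replicates 2 and 3). How many larvae went into a library is not given in the sources used here.

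Fatty acids enter cells partly through transport proteins of the plasma membrane and are then carried through the cytosol by small fatty acid binding proteins. In enterocytes, the absorptive cells of the gut, absorbed fat is packed with apolipoproteins into lipoprotein particles, and the liver, as well as the yolk syncytial layer of fish embryos, releases particles of the same kind. In the circulation lipoprotein lipase frees fatty acids from those particles, while DHA also travels as a lysophospholipid that enters the brain and the eye through a dedicated carrier. In a fish larva these steps carry fat from yolk and prey to the growing tissues.

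Library totals ran from 12805866 to 19169404 counts, which was deep for 4 of the 5 genes and shallow for SLC27A1. Levels are given as CPM, which set a gene's count against the library total, scaled by TMM, edgeR's correction for differences in library composition. The libraries of 10 dph low replicate 2 and 5 dph medium replicate 2 had the lowest TMM factors, 0.861 and 0.808. They also had the lowest scores of long against short genes (mean log2 level of very long genes minus that of short respiratory chain genes), -3.41 and -2.76. In all 26 libraries markers of enterocytes, liver, brain, fast muscle and exocrine pancreas were present. In such bulk samples fewer cells of a type and less RNA per cell cannot be told apart.

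Between 5 and 10 dph FABP2 and mfsd2ab rose at every DHA level, and APOC2 rose in low and high DHA. At 15 dph the means of the 5 genes were ordered by dose. FABP2, mfsd2ab, Apob and APOC2 were highest in low DHA and lowest in high DHA, and SLC27A1 was the reverse. Of all tested genes 15.3% and 13.6% had these orders. For high with low DHA at 15 dph all 5 passed, at an adjusted p under 0.05 by edgeR's quasi-likelihood test with Benjamini-Hochberg adjustment over all genes. Of all genes 7.46% passed there. The 5 genes were chosen with that comparison known, and 2 of them passed without high replicate 2 of 15 dph. At 5 dph none of them passed between any of the DHA levels. The plot of levels by library shows both patterns.

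**Figure D1:**
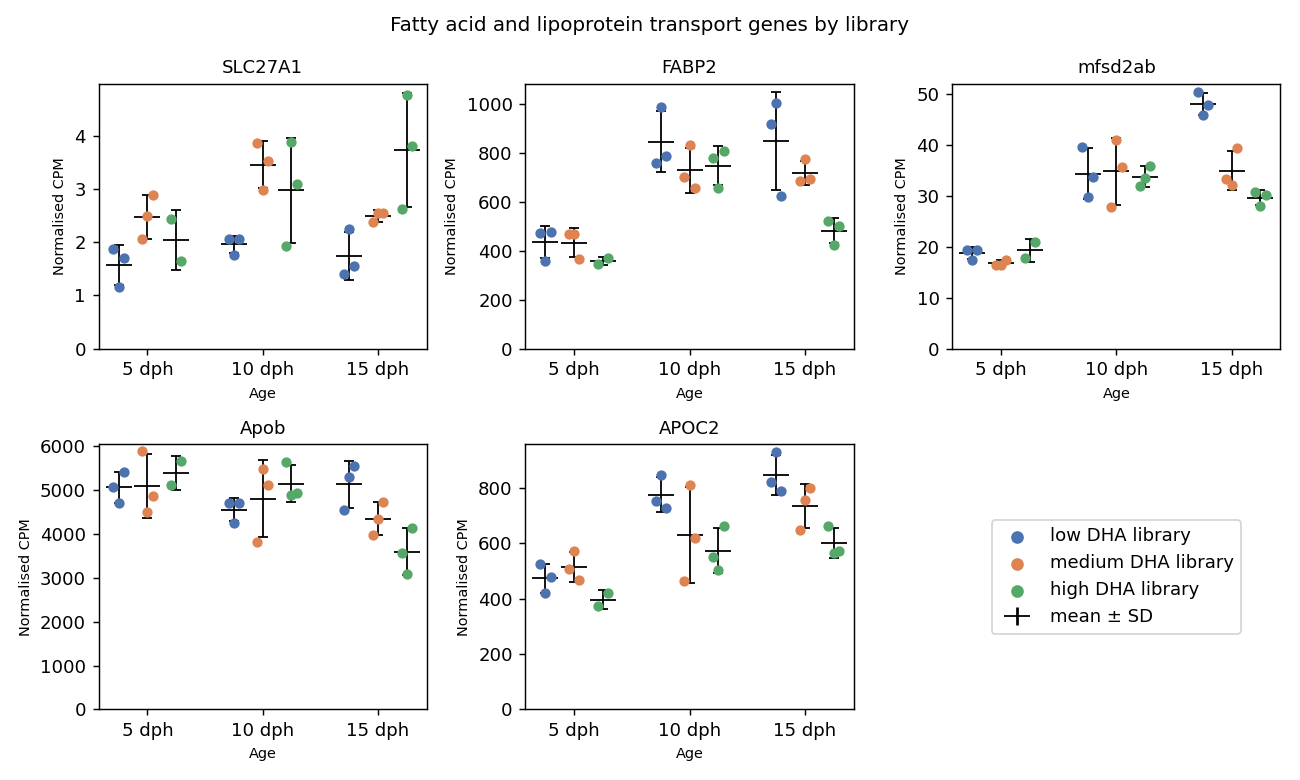
Normalised CPM (vertical axes, from 0) of the 5 genes in each of the 26 libraries (points), by age and DHA level, with the mean and SD of each group (bars). At 15 dph the points of high DHA lie below those of low DHA for FABP2, mfsd2ab, Apob and APOC2 and above them for SLC27A1.

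SLC27A1, a membrane fatty acid transport protein that also activates fatty acids to acyl-CoA, was the gene with the fewest reads, 16 to 82 per library. At 5 dph its level was 1.86, 1.16 and 1.7 CPM in low DHA (replicates 1 to 3), 2.06, 2.49 and 2.88 CPM in medium DHA and 2.44 and 1.64 CPM in high DHA (replicates 2 and 3). At 10 dph it was 2.05, 1.77 and 2.05 CPM in low, 3.87, 2.98 and 3.52 CPM in medium and 1.94, 3.89 and 3.09 CPM in high DHA. All medium DHA libraries were above all low DHA libraries at both ages, while high DHA overlapped low DHA. At 15 dph the levels were 1.4, 2.24 and 1.55 CPM in low, 2.37, 2.56 and 2.55 CPM in medium and 2.63, 4.76 and 3.8 CPM in high DHA, so that the 3 groups did not overlap. Means ran from 1.57 ± 0.369 CPM in 5 dph low DHA to 3.73 ± 1.07 CPM in 15 dph high DHA (SD, n = 3 each), and each group overlapped its neighbour in the order of the 9 means. No comparison of ages within a DHA level passed for this gene, with adjusted p between 0.14 and 0.64 by edgeR.

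FABP2, the intestinal fatty acid binding protein, carries absorbed fatty acids through the enterocyte. At 5 dph its level was 474, 359 and 476 CPM in low, 468, 469 and 365 CPM in medium and 347 and 369 CPM in high DHA. At 10 dph it was 760.04, 989 and 789 CPM in low, 703, 833 and 655 CPM in medium and 779, 657 and 810 CPM in high DHA. Every library of 10 dph was above every library of 5 dph at all DHA levels. The rise had a log2 fold change of 0.95 ± 0.16 in low (SE, adjusted p = 2.1e-05 by edgeR), 0.75 ± 0.16 in medium (adjusted p = 0.0011) and 1.07 ± 0.18 in high DHA (adjusted p = 0.00033). With the score of long against short genes as a covariate the low DHA value was 0.39 (adjusted p = 0.23), and mean scores were -2.75 ± 0.63 at 10 dph and -1.32 ± 0.15 at 5 dph in low DHA (SD, n = 3 each).

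At 15 dph FABP2 was 918, 1004 and 623 CPM in low, 686, 775 and 692 CPM in medium and 522, 424 and 502 CPM in high DHA. The 3 low DHA libraries spread widely and overlapped medium DHA, and the 3 high DHA libraries were below all others of that age. In high DHA FABP2 fell between 10 and 15 dph (15 over 10 dph -0.63 ± 0.16, adjusted p = 0.003 by edgeR), while the same step had adjusted p = 0.99 in low and 0.92 in medium DHA. The difference of this step between high and low DHA did not itself pass (adjusted p = 0.1 by edgeR), and that between high and medium DHA was not tested. In the order of the 9 group means, from 848 CPM in 15 dph low to 358 CPM in 5 dph high DHA, 1 gap without overlap stood between neighbours: 15 dph medium DHA lay above 15 dph high DHA. The level in 15 dph high DHA, 482 ± 51.7 CPM (SD, n = 3), overlapped that of 5 dph low DHA, 436 ± 67 CPM.

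The mfsd2ab gene is a fish homolog of MFSD2A, which in mammals carries DHA bound in lysophosphatidylcholine into the brain and the eye. Its level at 5 dph was 19.5, 17.4 and 19.4 CPM in low, 16.4, 16.4 and 17.5 CPM in medium and 17.8 and 20.9 CPM in high DHA. At 10 dph it was 39.7, 29.8 and 33.7 CPM in low, 27.9, 41 and 35.7 CPM in medium and 31.9, 33.5 and 36 CPM in high DHA. The libraries of 10 dph were all above those of 5 dph, and the DHA levels overlapped at 10 dph. The rise from the youngest age was 0.87 ± 0.12 in low (log2 fold change, SE, adjusted p = 3.7e-06 by edgeR), 1.05 ± 0.12 in medium (adjusted p = 2.8e-06) and 0.81 ± 0.14 in high DHA (adjusted p = 0.00038).

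Between 10 and 15 dph the DHA levels parted for mfsd2ab. At 15 dph it was 50.4, 45.9 and 47.9 CPM in low, 33.4, 32.2 and 39.4 CPM in medium and 30.8, 28.1 and 30.2 CPM in high DHA, and none of the 3 groups overlapped. It rose further in low DHA (15 over 10 dph 0.48 ± 0.12, adjusted p = 0.0027 by edgeR), and the adjusted p of this step was 0.96 in medium and 0.22 in high DHA. With the score of long against short genes as a covariate the low DHA step was 0.32 (adjusted p = 0.28). Over the 9 groups, 15 dph low DHA stood alone at the top, with 48.1 ± 2.23 CPM (SD, n = 3). The next 4 groups, 15 dph medium and all 3 of 10 dph, each overlapped the one beside it, between means of 35 and 33.8 CPM. Then came 15 dph high DHA at 29.7 ± 1.39 CPM, and the groups of 5 dph stood apart at the bottom, between 19.3 and 16.8 CPM.

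Apob encodes apolipoprotein B, the large structural protein around which chylomicrons and very low density lipoproteins are built. At 5 dph its level was 5065, 4703 and 5405 CPM in low, 5895, 4496 and 4872 CPM in medium and 5113 and 5656 CPM in high DHA. At 10 dph it was 4699, 4248 and 4709 CPM in low, 3809.7, 5479.97 and 5119.86 CPM in medium and 5638, 4873 and 4920.43 CPM in high DHA. Both ages overlapped at every DHA level, and no step from 5 to 10 dph passed (adjusted p = 0.33, 0.65 and 0.8 in low, medium and high DHA by edgeR). At 15 dph the level was 4532, 5305 and 5548 CPM in low, 3967, 4348 and 4722 CPM in medium and 3563, 3074 and 4139 CPM in high DHA. High DHA then lay below low DHA but overlapped medium DHA, and in high DHA Apob fell with age (15 over 10 dph -0.52 ± 0.13, adjusted p = 0.004). With the rows Apob and APOB summed that step was -0.31 (adjusted p = 0.074), and the call was lost. Means ran from 5384 ± 384 CPM in 5 dph high DHA (n = 2) to 3592 ± 533 CPM in 15 dph high DHA (SD, n = 3), and each group overlapped the next in that order.

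A second row of the table is named APOB in capitals, and reads of near-identical genes may be split between both rows, so each is uncertain as the measure of 1 gene. The level of APOB was 3590 ± 187 CPM in low DHA at 5 dph, 4422 ± 652 CPM at 10 dph and 6221 ± 359 CPM at 15 dph (SD, n = 3 each). In low DHA it rose between 10 and 15 dph (0.49 ± 0.15, adjusted p = 0.014 by edgeR), where Apob had a log2 fold change of 0.17 ± 0.13 (adjusted p = 0.3). In high DHA, where Apob fell in this step, APOB had a log2 fold change of -0.12 ± 0.15 (adjusted p = 0.56). The ratio of APOB to Apob counts, which carries no correction for gene length, was 0.618 to 0.724 in the 8 libraries of 5 dph, 0.831 to 1.07 in the 9 of 10 dph and 1.1 to 1.45 in the 9 of 15 dph. The ages did not overlap in this ratio, and within an age the DHA levels overlapped except that high DHA lay below low DHA at 5 dph and above medium DHA at 15 dph.

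**Figure D2:**
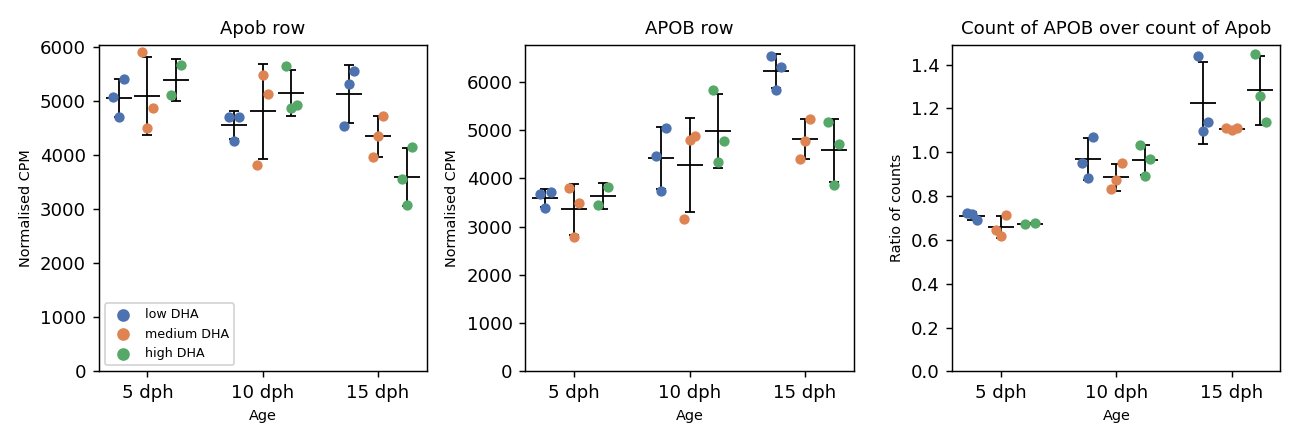
Normalised CPM of the rows Apob and APOB and the ratio of their counts (vertical axes, from 0) in each library, by age and DHA level, with group means and SD. The ratio lies at 0.618 to 0.724 at 5 dph and at 1.1 to 1.45 at 15 dph.

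APOC2 encodes the apolipoprotein that activates lipoprotein lipase. Its level at 5 dph was 523, 419 and 477 CPM in low, 506, 573 and 466 CPM in medium and 372 and 421 CPM in high DHA. At 10 dph it was 751, 846 and 727 CPM in low, 464, 809.56 and 618 CPM in medium and 551, 504 and 662 CPM in high DHA. The medium DHA libraries of 10 dph covered nearly the whole range of the other groups, and all high DHA libraries were below all low DHA libraries. The rise over 5 dph was 0.71 ± 0.15 in low (log2 fold change, SE, adjusted p = 0.00032 by edgeR) and 0.53 ± 0.17 in high DHA (adjusted p = 0.034), and in medium DHA the adjusted p was 0.13. The high DHA call was lost without high replicate 2 or 3 of 5 dph or high replicate 1 or 3 of 10 dph (adjusted p 0.054 to 0.3). With the score of long against short genes as a covariate the low DHA value was 0.2 (adjusted p = 0.54).

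At 15 dph APOC2 was 822, 928 and 789 CPM in low, 647, 756 and 799.82 CPM in medium and 662, 564 and 573 CPM in high DHA. High DHA was below low DHA and overlapped medium DHA. No step from 10 to 15 dph passed, with adjusted p = 0.51, 0.26 and 0.75 in low, medium and high DHA by edgeR. The order of means ran from 846 ± 72.5 CPM in 15 dph low DHA (SD, n = 3) to 396 ± 34.9 CPM in 5 dph high DHA (n = 2), with overlap between all neighbours.

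Against these counts stands the share of all tested genes that passed. From 5 to 10 dph 3 of the 5 genes rose in low DHA, 2 in medium and 3 in high DHA, where 59.2%, 34.1% and 16.4% of all genes passed in either direction and 30.3%, 15% and 8.69% rose. From 10 to 15 dph 1 rose in low DHA, none passed in medium DHA and 2 fell in high DHA, where 42.8%, 32.8% and 38.9% of all genes passed. Of all genes 26.6% rose in that low DHA step and 20.2% fell in that high DHA step. For that count of 0 in medium DHA, edgeR gave 0 members with unadjusted p under 0.05 and DESeq2 called 0. The ages of 1 DHA level share the libraries of 10 dph. The genes were chosen with the difference of high with low DHA at 15 dph known. For the steps from 10 to 15 dph, which use those libraries, shares of all genes are therefore not a fair measure.

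The comparison of high with low DHA asks whether the richest prey changed these genes at a given age. At 5 dph none of the 5 passed by edgeR, where 0.0823% of all genes did. Of the members 0 had an unadjusted p under 0.05 and DESeq2 called 0. Log2 fold changes were 0.37 ± 0.31 for SLC27A1, -0.29 ± 0.17 for FABP2, 0.04 ± 0.14 for mfsd2ab, 0.09 ± 0.15 for Apob and -0.26 ± 0.17 for APOC2 (SE, high over low). Adjusted p lay between 0.54 and 0.92. In a fit to the compared groups alone 1951 genes passed in place of 6, and APOC2 was among them (-0.27, adjusted p = 0.041).

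At 10 dph APOC2 alone of the 5 passed, where 23.8% of all genes did and 4.39% fell. It stood at 572 ± 81.1 CPM in high and 774 ± 62.9 CPM in low DHA (SD, n = 3 each), or -0.44 ± 0.15 as log2 fold change with its SE (adjusted p = 0.036 by edgeR). Of all genes 1737 passed, but 428 did without low replicate 2, 381 in the compared groups alone and 32 with the long against short gene score as a covariate. The call was lost without low replicate 2 or high replicate 1 or 2 (adjusted p 0.12 to 0.18), and without both libraries of the lowest TMM factors (-0.39, adjusted p = 0.12). It was also lost in a fit to the compared groups alone (adjusted p = 0.059) and with the score of long against short genes as a covariate (-0.14, adjusted p = 0.71), a score of -1.9 ± 0.25 in high and -2.75 ± 0.63 in low DHA. SLC27A1 stood at 0.6 ± 0.27 (adjusted p = 0.11), and passed at 0.83 without high replicate 1 (adjusted p = 0.045). Apob, at 0.18 ± 0.13, was higher in all 3 high DHA libraries than in any low DHA library, yet the adjusted p was 0.36. FABP2 was at -0.18 ± 0.15 and mfsd2ab at -0.03 ± 0.12 (adjusted p = 0.44 and 0.89).

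At 15 dph 4 of the 5 genes fell and 1 rose in high DHA, where 7.46% of all genes passed, 4.47% falling and 2.99% rising. The genes were chosen with this comparison known, so that count says nothing about lipid transport as a whole. FABP2 stood at 482 ± 51.7 CPM in high and 848 ± 200.2 CPM in low DHA, and mfsd2ab at 29.7 ± 1.39 and 48.1 ± 2.23 CPM in high and low DHA (SD, n = 3 each). Their log2 fold changes were -0.81 ± 0.16 and -0.69 ± 0.12 (SE, adjusted p = 0.0033 and 0.0014 by edgeR), and both passed under every alternative tried, the omission of single libraries included. The highest adjusted p among those alternatives, by edgeR or DESeq2, was 0.0495 for FABP2, just under the threshold, and 0.018 for mfsd2ab. Apob stood at 3592 ± 533 CPM in high and 5128 ± 531 CPM in low DHA (-0.51 ± 0.13, adjusted p = 0.019), and APOC2 at 599 ± 54.6 and 846 ± 72.5 CPM in high and low DHA (-0.5 ± 0.15, adjusted p = 0.042). SLC27A1 stood at 3.73 ± 1.07 CPM in high and 1.73 ± 0.448 CPM in low DHA, from 47 to 82 and 26 to 43 reads per library (1.1 ± 0.26, adjusted p = 0.01).

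Calls of the other 3 genes at 15 dph depended on which libraries were kept. With single libraries left out, log2 fold changes were 0.88 to 1.33 for SLC27A1, -0.63 to -0.42 for Apob and -0.58 to -0.43 for APOC2. Without high replicate 2 SLC27A1 was at 0.88 (adjusted p = 0.099). Apob was lost without low replicate 2 or 3 or high replicate 1 or 2 (adjusted p 0.051 to 0.14), and APOC2 without low replicate 2 or 3 or high replicate 2 or 3 (adjusted p 0.065 to 0.18). In a fit to the compared groups alone SLC27A1 and Apob had adjusted p = 0.078 and 0.073. The count of members that passed was 2 without high replicate 2, which left FABP2 and mfsd2ab, and 3 without low replicate 2 or 3. With Apob and APOB summed the log2 fold change was -0.47 (adjusted p = 0.035), and APOB by itself stood at 4582 ± 658 CPM in high and 6221 ± 359 CPM in low DHA (-0.44 ± 0.15, adjusted p = 0.082).

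**Figure D3:**
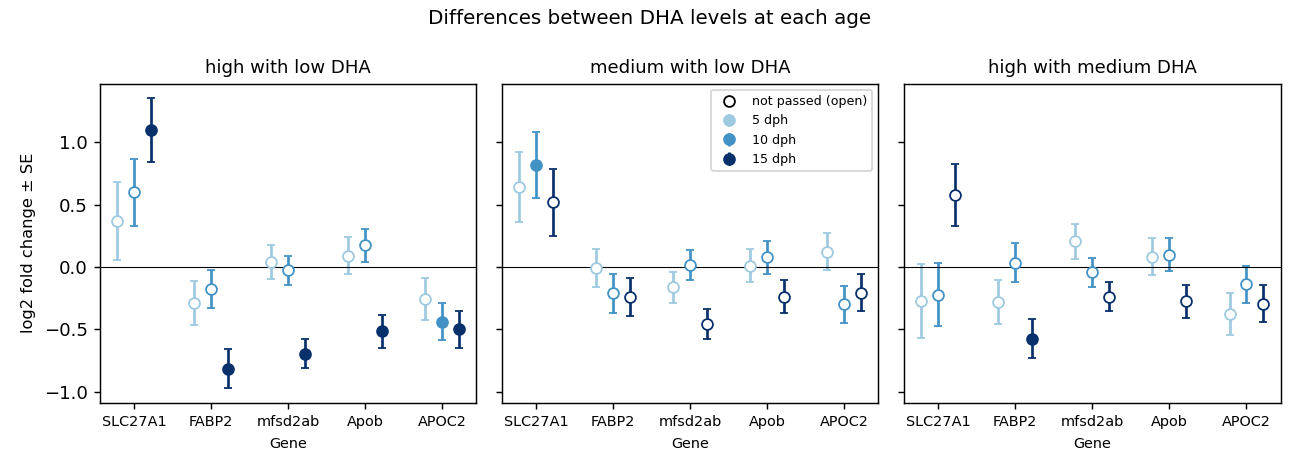
Log2 fold changes with their SE (vertical axis) of the 5 genes between DHA levels at 5, 10 and 15 dph, with filled points where the adjusted p was under 0.05 and open points otherwise. In high with low DHA all 5 points of 15 dph are filled, from -0.81 for FABP2 to 1.1 for SLC27A1.

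Medium DHA lay between the other levels for all 5 genes at 15 dph. The means were ordered low over medium over high DHA for 4 genes and high over medium over low DHA for SLC27A1. Of all tested genes 15.3% and 13.6% had these orders. The 5 genes were chosen with the difference of high with low DHA at that age known. Shares of all genes are therefore not a fair measure for their order. No member passed for medium with low DHA by edgeR, where 0.0686% of all genes did. Of the 5, mfsd2ab alone had an unadjusted p under 0.05, and DESeq2 called 0. That gene stood at 35 ± 3.85 CPM in medium and 48.1 ± 2.23 CPM in low DHA (SD, n = 3 each), a log2 fold change of -0.46 ± 0.12 (SE) with adjusted p = 0.21. SLC27A1 was at 0.52 ± 0.27, and FABP2, Apob and APOC2 at -0.24 ± 0.15, -0.24 ± 0.13 and -0.2 ± 0.15, with adjusted p from 0.57 to 0.75.

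For high with medium DHA at 15 dph FABP2 fell, 1 of the 5 where 16.9% of all genes passed and 9.08% fell. It stood at 482 ± 51.7 CPM in high and 718 ± 49.7 CPM in medium DHA (-0.57 ± 0.16, adjusted p = 0.015 by edgeR). The call was lost without medium replicate 2 or high replicate 2 (adjusted p = 0.06 and 0.09). The mfsd2ab gene was at -0.24 ± 0.12, Apob at -0.27 ± 0.13, APOC2 at -0.29 ± 0.15 and SLC27A1 at 0.58 ± 0.25, with adjusted p from 0.11 to 0.17. The 3 comparisons of DHA levels at 1 age share their libraries.

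At the younger ages SLC27A1 was the 1 gene of the 5 that passed for medium with low DHA. At 10 dph it stood at 3.46 ± 0.446 CPM in medium and 1.96 ± 0.165 CPM in low DHA (SD, n = 3 each; 0.82 ± 0.26, SE, adjusted p = 0.018 by edgeR), a rise where 34.9% of all genes passed and 24.3% rose. The call was lost without low replicate 2 or medium replicate 1 or 3 (adjusted p 0.051 to 0.08), without both libraries of the lowest TMM factors and with the long against short gene score as a covariate. At 5 dph none of the 5 passed for medium with low DHA, where 27.2% of all genes did. Those 1980 genes were 0 without medium replicate 2 and 0 with the score as a covariate. SLC27A1 was the 1 member with an unadjusted p under 0.05 there, and DESeq2 called 0. For high with medium DHA none passed at 5 dph, where 0% of all genes did, or at 10 dph, where 0.137% did. Members with an unadjusted p under 0.05 numbered 1 and 0 at these ages, and DESeq2 called 0 in both.

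Whether the high to low difference itself changed with age was tested as an interaction. Between 10 and 15 dph it changed by -0.67 ± 0.17 for mfsd2ab and by -0.69 ± 0.19 for Apob, as log2 values with SE (edgeR's adjusted p = 0.03 and 0.043), where 3.44% of all genes passed and 2.98% in the same direction. FABP2 had a change of -0.64 ± 0.22 (adjusted p = 0.1), SLC27A1 of 0.5 ± 0.37 (adjusted p = 0.47) and APOC2 of -0.06 ± 0.21 (adjusted p = 0.91). The FABP2 change passed by edgeR without low replicate 3 of 15 dph (-0.82, adjusted p = 0.024). It also passed with the score of long against short genes as a covariate (-0.91, adjusted p = 0.041). Between 5 and 15 dph mfsd2ab passed with -0.74 ± 0.18 (adjusted p = 0.037 by edgeR), where 1.7% of all genes did, 1.17% in the same direction. The genes were chosen with the difference at 15 dph known, and both changes up to 15 dph include it. Shares of all genes are therefore not a fair measure for those changes. The mfsd2ab call for 10 to 15 dph was lost without low replicate 2 or 3 or high replicate 2 of 10 dph, or low replicate 1 or high replicate 1 or 2 of 15 dph (adjusted p 0.053 to 0.14), and the Apob call without low replicate 2 or 3 or high replicate 1 or 2 of either age (adjusted p 0.064 to 0.16). That of mfsd2ab for 5 to 15 dph was lost without any 1 library of 5 dph, low replicate 2 or 3 of 15 dph or high replicate 2 or 3 of 15 dph (adjusted p 0.052 to 0.27). Both calls for 10 to 15 dph were also lost with the score as a covariate (adjusted p = 0.14 and 0.13), in the compared groups alone (0.078 and 0.089) and without both libraries of the lowest TMM factors (0.097 and 0.093), and that of Apob with the rows summed (0.058). Between 5 and 10 dph none of the 5 passed, where 18.1% of all genes did, with 0 members at an unadjusted p under 0.05 and 0 called by DESeq2. The SE of these changes ran from 0.18 for mfsd2ab to 0.41 for SLC27A1.

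At 15 dph most marker rows of gut, liver, fast muscle and exocrine pancreas were lower in high than in low DHA. Summed levels of the 9 enterocyte marker rows ran from 1079 to 1235 CPM in high and from 1384 to 1743 CPM in low DHA, and 8 of the 9 were lower in high DHA, 3 of them past the threshold. The 9 liver marker rows summed to 1443 to 1737 CPM in high and 1993 to 2249.64 CPM in low DHA, with 8 of 9 lower and 2 past the threshold. Fast muscle sums overlapped between both groups, at 19997 to 29555 CPM in high and 24313 to 29091 CPM in low DHA, as did those of exocrine pancreas, at 4746 to 5639 CPM and 4778 to 6286 CPM. Brain marker sums were 534 to 576 CPM in high and 504 to 549.52 CPM in low DHA. At 15 dph 1 of 5 fast muscle rows fell and none of 5 pancreas or 5 brain rows passed. Of all genes 4.47% fell in high with low DHA at that age. At 10 dph the enterocyte sums overlapped, at 1821 to 2025 CPM in high and 1627 to 1891 CPM in low DHA. In high DHA the enterocyte sum stood at 1158 ± 77.8 CPM at 15 dph and 1904 ± 107 CPM at 10 dph (SD, n = 3 each), where FABP2 and Apob also fell. All 9 enterocyte rows were lower in that step, 7 of them past the threshold, with a median log2 fold change of -1.12. Of all genes 20.2% fell in it. All 5 fast muscle rows were lower too, 3 of them past the threshold (median -0.5). Lower rows numbered 6 of 9 for liver (median -0.06), 4 of 5 for pancreas (-0.36) and 2 of 5 for brain (0.09). From 5 to 10 dph FABP2 rose at every DHA level. Lower enterocyte rows then numbered 7, 7 and 6 of 9 in low, medium and high DHA (medians -0.06, -0.2 and -0.07). Liver rows had medians of 0.32, -0.08 and 0.25 in the same order. In the interaction of DHA level with age from 10 to 15 dph, 9 of 9 enterocyte and 9 of 9 liver rows were negative, with medians of -0.58 and -0.44. Brain rows were negative in 5 of 5 (median -0.29), fast muscle rows in 4 of 5 (-0.29) and pancreas rows in 3 of 5 (-0.06). Past the threshold were 3 enterocyte, 2 liver and 1 fast muscle rows, all negative, where 2.98% of all genes passed in that direction. In low DHA mfsd2ab rose from 10 to 15 dph. Higher rows in that step numbered 8 of 9 for liver (median 0.51) and 4 of 9 for enterocytes (-0.08). They numbered 3 of 5 for brain (0.57), 1 of 5 for fast muscle (-0.34) and 2 of 5 for pancreas (-0.3). Past the threshold rose 6 liver, 3 brain, 1 enterocyte, 1 fast muscle and 1 pancreas rows, where 26.6% of all genes rose. The part of gut, liver or other tissue RNA in the differences of the 5 genes between ages or DHA levels, and in the interaction, was not tested.

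**Figure D4:**
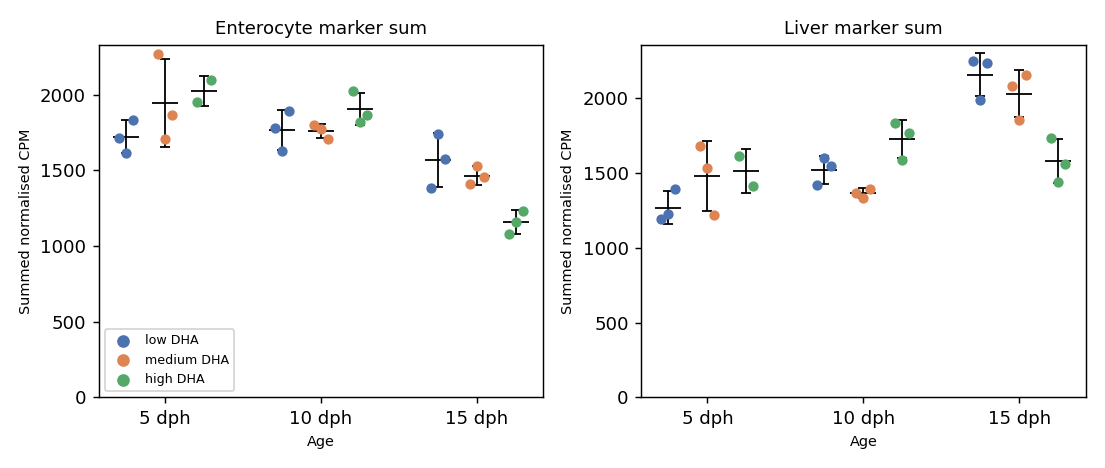
Summed normalised CPM (vertical axes, from 0) of 9 enterocyte and 9 liver marker rows in each library, by age and DHA level, with group means and SD. At 15 dph high DHA lies below low DHA in both sums, at 1158 and 1567 CPM for enterocyte and 1581 and 2159 CPM for liver means.

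Around the 5 genes, a list of other genes for lipid uptake, binding, lipoprotein assembly, lipolysis and receptors held 62 rows, all tested. The row APOB was among them. This list too was chosen with earlier results of these data known, so its shares say nothing about lipid transport as a whole. For high with low DHA at 15 dph 4 of the 62 rose and 8 fell, 19.4% in all, where 7.46% of all genes passed, and their median log2 fold change was -0.19, against -0.0037 for all genes. Among the rises were lpcat1, which reacylates lysophosphatidylcholine (0.73 ± 0.14, adjusted p = 0.0029 by edgeR), Fabp6, an ileal bile acid binding protein (0.98 ± 0.21), and Abcg1, a sterol exporter (0.33 ± 0.08). The row Fabp6 had a mean of 25.5 CPM over the libraries. A second row named FABP6 in capitals, with a mean of 1215 CPM, was not among the rises. Falls included DBI, the acyl-CoA binding protein (-0.53 ± 0.13, adjusted p = 0.014), and ACSL5, an acyl-CoA synthetase (-0.49 ± 0.13). By role, 3 of 9 binding proteins fell and 1 rose, 2 of 12 uptake and activation genes fell, 1 of 9 lipoprotein protein genes and 1 of 6 lipolysis genes fell, and 2 of 4 lysophospholipid genes rose. Of 12 receptor and efflux genes 1 rose and 1 fell. None of the 10 assembly genes passed, and their median was -0.26.

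**Figure D5:**
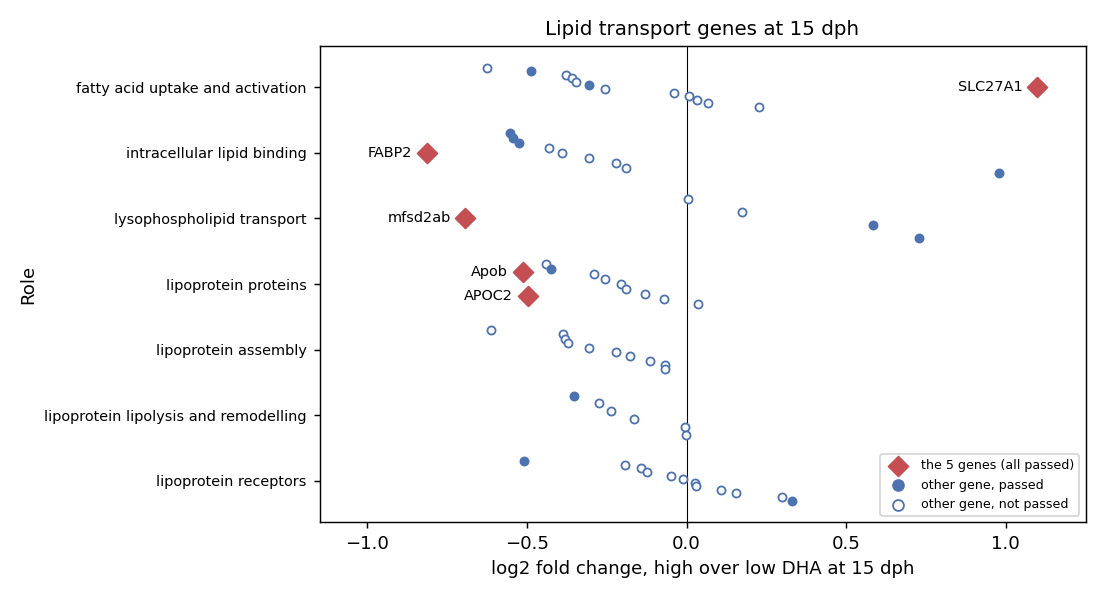
Log2 fold change of high over low DHA at 15 dph (horizontal axis) of the 5 genes (diamonds) and 62 other lipid transport genes (circles, filled where the adjusted p was under 0.05), by role (vertical axis). SLC27A1 lies to the right at 1.1, and the other 4 diamonds lie between -0.81 and -0.5.

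At 10 dph 11 of the 62 rose and 1 fell in high with low DHA, 19.4% in all, where 23.8% of all genes passed. LPL, the lipase that APOC2 activates, was among the rises (0.67 ± 0.13, adjusted p = 0.0022 by edgeR), with lpcat4 (0.84 ± 0.15). The fall was Cidec, a lipid droplet protein (-0.56 ± 0.18). LPL and lpcat4 also passed as rises in medium with low DHA at 10 dph (0.72 and 0.95). Both fell from 5 to 10 dph in low DHA (-1.09 and -1.59). Over all genes the count for high with low DHA at 10 dph, 1737, was 428 without low replicate 2. With the score of long against short genes as a covariate it was 32. The high to low difference of LPL changed by -0.67 ± 0.18 between 10 and 15 dph (adjusted p = 0.046 by edgeR). That was the 1 call among the 62 for this change, 1.61% of the list, where 3.44% of all genes passed. The LPL change includes the same low DHA libraries of 10 dph. Calls of single list genes were not recomputed with libraries left out or with the score as a covariate. At 5 dph none of the 62 passed by edgeR, 6 had an unadjusted p under 0.05 and DESeq2 called 0. From 5 to 10 dph 26 rose and 15 fell in low DHA, 18 and 11 in medium and 10 and 9 in high DHA. These are 66.1%, 46.8% and 30.6% of the list, where 59.2%, 34.1% and 16.4% of all genes passed. From 10 to 15 dph 21 rose and 15 fell in low, 14 and 18 in medium and 9 and 22 in high DHA, or 58.1%, 51.6% and 50% of the list, where 42.8%, 32.8% and 38.9% of all genes passed.

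How alike the patterns were was measured over the 26 libraries as the root mean square distance between log2 levels, each gene centred on its own mean. Of the 5, FABP2 and APOC2 were closest to each other, at 0.26, and SLC27A1 was the farthest from the rest, at 0.6 to 0.65. Among all genes of at least 5 CPM, those near to mfsd2ab included ACSL6 and Hmmr, each at 0.19, where the median gene stood at 0.56. Nearest to FABP2 were Tmod4 (0.21), TNNI2 (0.21) and gpd1 (0.22), and nearest to Apob were ANPEP (0.14), SLC5A1 (0.15) and ALDH1A2 (0.15). TNNI2 is among the fast muscle marker rows. ANPEP, with a mean of 747 CPM, is among the enterocyte marker rows and makes up a large part of their sum. APOC2 had tnfaip8l3 (0.16), hmces (0.17) and TCEA1 (0.17), and SLC27A1 had CAPN9 (0.33), ARID5A (0.34) and Prr15 (0.34). The distances of SLC27A1 include the counting error of its low counts.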

How the data were processed

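Raw counts per gene name were deposited by the authors as 1 table of whole numbers. DESeq2 is named in the submitters' processing notes, without a version; for the aligner, the counter, the build and the gene models nothing is given in the sources used here. Internal controls (4 samples without a column) were not analysed here. The counts, 12805866 to 19169404 per library, went into edgeR 4.0.16 (R 4.3.3): filterByExpr on the 9 groups (7292 of 7295 rows kept), TMM, 1 mean per group over all 26 libraries, robust quasi-likelihood F-test, two-sided, Benjamini-Hochberg adjustment over all tested rows, threshold 0.05. SE came from the F statistic. Fits were tested on counts simulated for each gene by itself. The simulation held no shift of long against short genes between libraries of a group, so it cannot speak to calls that such shifts affect. Names that differ only in capitals (454 names, 916 rows) were kept apart and summed in an alternative. Other alternatives were DESeq2 1.42.0, another scaling, no filter, the compared groups alone, omission of each library, a score of long against short genes and replicate blocks.

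The 5 genes and all lists were chosen with earlier results of these data known. The text names the 5 genes, up to 3 rises and 3 falls of other transport genes with the smallest p and at least 5 CPM, and 3 nearest genes per member; some genes this rule names are not reported here. APOB was added because it shares a name.

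Replicate numbers come from the titles, and the labels do not say that a number marks a shared tank or day. Of the 12 comparisons with 3 pairs, deviations of same-numbered libraries correlated over 0.1 in every pair in only these: medium with low DHA at 15 dph (0.11 to 0.16) and 15 with 10 dph in high DHA (0.15 to 0.3). With 2 pairs, those of 10 with 5 dph in high DHA correlated at 0.17 and 0.18. The numbers were used as a block only in alternatives. The labels name 3 tanks per treatment but do not tie a library to a tank, and p-values measure the spread between the sampled libraries.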

Additional observations from a re-analysis of the deposited data

Results flagged for a closer look

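The high to low DHA difference changed with age for mfsd2ab and Apob, by a test of the change itself. Between 10 and 15 dph it moved by -0.67 (mfsd2ab) and -0.69 (Apob) on the log2 scale, and between 5 and 15 dph by -0.74 for mfsd2ab. For mfsd2ab the difference was 0.04, -0.03 and -0.69 at 5, 10 and 15 dph, and for Apob 0.09, 0.18 and -0.51. The genes were chosen with the difference at 15 dph known, and these changes include it, so the choice favoured them. Groups of 3 libraries or fewer were too small for a test of single outlying libraries. The calls for 10 to 15 dph were lost in 9 (mfsd2ab) and 12 (Apob) of 21 alternatives, and that of mfsd2ab for 5 to 15 dph in 9 of 19.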

How the results depend on the processing

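Of 711 alternative values, for 47 of 90 gene comparisons, 635 kept direction and side of threshold. A call was lost in 62 and gained in 6, and 8 uncalled values changed sign. Gains in the other comparisons were not counted. The values that changed sign were FABP2 in high with low DHA at 10 dph, 0.16 with the long against short gene score as a covariate, and 3 results with single libraries left out: mfsd2ab in high with low DHA at 5 dph (-0.080 to 0.16) and 10 dph (-0.16 to 0.090), and the APOC2 change between 10 and 15 dph (-0.15 to 0.056). The cause was not tested.

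With rows summed ignoring capitals the counts of the 5 genes that passed were 2 for 15 with 10 dph in low DHA, 1 in high DHA and 1 for the change of high with low DHA between 10 and 15 dph. With the score as a covariate they were 0 for high with low and 0 for medium with low DHA at 10 dph. They were then 1 for 10 with 5 dph and 0 for 15 with 10 dph in low DHA. For the 10 to 15 dph change the count was then 1 (FABP2), and mfsd2ab and Apob were lost. In fits to the compared groups alone they were 1, 0 and 3 for high with low DHA at 5, 10 and 15 dph, 0 for the change from 10 to 15 dph and 2 for that from 5 to 15 dph. Without the 2 libraries of lowest TMM factor, an alternative chosen after seeing the data, they were 0 for high with low DHA, 0 for medium with low DHA at 10 dph and 0 for the 10 to 15 dph change.

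Leaving out single libraries gave 0 to 1 for high with low DHA at 10 dph and 2 to 5 at 15 dph, 0 to 2 for medium with low DHA at 10 dph, 0 to 1 for high with medium DHA at 15 dph, 0 to 1 for 15 with 10 dph in medium DHA, and 0 to 2 for both changes up to 15 dph. Over all genes the counts for high with low DHA at 5, 10 and 15 dph were 6, 1737 and 544. Without single libraries they were 0 to 5, 428 to 2069 and 156 to 846, and in the compared groups alone 1951, 381 and 163. DESeq2 called 44 at 5 dph, and with the score 2 passed at 5 dph and 32 at 10 dph. For medium with low DHA at 5, 10 and 15 dph counts of 1980, 2546 and 5 were 0, 348 and 4 with the score, and 0 to 2839, 2149 to 2505 and 0 to 10 without single libraries. For high with medium DHA counts of 0, 10 and 1234 were 0 to 730, 1 to 345 and 439 to 1005 without single libraries, and DESeq2 called 232 at 5 dph and 133 at 10 dph. For 10 with 5 dph in low DHA 4317 genes were 1249 with the score, and for 15 with 10 dph 3119 were 315. In high DHA 1194 for 10 with 5 dph were 239 to 1159 without single libraries. For the change between 10 and 15 dph 251 were 47 to 627 without single libraries, 40 with the score, 21 in the compared groups alone and 467 by DESeq2. For that between 5 and 10 dph 1321 were 94 to 1868 and 42 with the score, and for that between 5 and 15 dph 124 were 11 to 491, 78 with the score, 778 in the compared groups alone, 364 by DESeq2 and 248 with a replicate block. In medium DHA 2488 for 10 with 5 dph were 1373 to 2826, 1520 with the score and 1170 in the compared groups alone, and 2391 for 15 with 10 dph were 1589 to 2167. The compared groups alone gave 854 and 0 for medium with low DHA at 5 and 15 dph, 5 for high with medium DHA at 10 dph and 2042 for 15 with 10 dph in low DHA. DESeq2 gave 21 for medium with low DHA at 15 dph, summed rows gave 2 there, and the score gave 86 for high with medium DHA at 10 dph. Without the 2 libraries of lowest TMM factor 678 passed for high with low DHA at 10 dph, 396 for medium with low DHA at 5 dph and 88 for the 10 to 15 dph change. The replicate block by title number gave 10 for high with low DHA at 5 dph and 2 and 16 for high with medium DHA at 5 and 10 dph, and changed no call of the 5 genes (5 passed at 15 dph). Of the 15 nearest genes 7 were nearest over group means too. Depth limits SLC27A1, with 16 to 82 counts per library.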
